A study of Mus musculus with 2 samples.

Results

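Transcript signals of 10 endothelial genes were compared between the hypothalamus of mice lacking Crtc1 and that of wild-type mice. The genes were Plvap, Cldn5, Pecam1, Flt1, Kdr, Tek, Cdh5, Slco1c1, Slco1a4 and Abcb1a, and the Affymetrix platform annotation paired 15 of 45037 probe sets with one of them alone. Plvap was chosen by its own values in these data, a signal of 427 in knockout RNA against 133 in wild-type RNA, so its difference is given as a description. The other 9 genes were taken as markers of barrier vessels or of all endothelium. Each genotype, Crtc1 knockout or wild type, was 1 array hybridised with RNA mixed from 3 males of 12 weeks, which had been fasted for 18 h and then given food for 6 h. All animals of both genotypes shared this feeding schedule. The labels name no strain and do not say how the Crtc1 allele was made, and the pooling removes the spread between mice. With 1 array a group the genotypes could not be tested against each other, so there are no p-values and no replicate stands behind any difference.

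Crtc1 helps the transcription factor CREB to switch on its target genes, and the title of the study places it in energy balance and fertility. Most vessels of the brain form a barrier: their endothelial cells are sealed by tight junctions, take up nutrients and hormones through dedicated transporters and pump foreign compounds back into the blood. In the median eminence at the base of the hypothalamus, as in the choroid plexus and the pituitary, capillaries are instead fenestrated, with pores closed by diaphragms, and lack the barrier. Vascular endothelial growth factor maintains fenestrated capillaries, whereas Wnt and norrin signals maintain the barrier.

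The deposited values are linear signals with the same trimmed mean on both arrays, and their medians were 54.4 (knockout) and 52.2 (wild type). The Crtc1 signal was 85.1 against 631 by its brighter probe set and 31.5 against 209 by another, lower in the knockout pool as the labels state. Hypothalamic peptide genes other than Trh were bright in both pools. Pmch, the precursor of melanin-concentrating hormone, read 3341 and 3498 in knockout and wild type, and Hcrt, the orexin precursor, 817 and 883. Avp, at 1690 and 1149, and Oxt, at 969 and 695, were higher in the knockout pool. Trh read 156 and 151. Differences are the log2 signal in the knockout pool minus that in the wild-type pool, and probe sets are called measured if their mean log2 signal reached the median of all probe sets, equal to a signal of 52.3. The array error is the SD of this difference between probe sets of one gene in the same signal range. For mean log2 signals under 7 it came to 0.35, for those of 7 to 8 to 0.25, of 8 to 9 to 0.21, of 9 to 10 to 0.17, and for brighter probe sets to 0.12. It does not include the spread between animals.

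All 10 genes were measured, by 14 of their 15 probe sets. By the brightest probe set of each gene, 7 were higher and 3 lower in the knockout pool. Without Plvap, which was chosen for being higher, 6 of 9 were higher, while 50.9% of the 11312 measured genes were higher by any amount. Plvap was the only one of the 10 at least 1.5-fold higher, against 2.06% of all measured genes, and none was at least 1.5-fold lower, against 1.44%. At a threshold of 2-fold, Plvap was again the only one, against 0.265% of all genes higher and 0.168% lower. The median difference of the 10 genes was 0.09, and that of the 9 without Plvap was 0.08, beside 0.00 for all measured genes. With a filter at the 70th percentile, which left 6 of the 10, the first median was 0.22. Among the 9 others the differences ran from -0.32 to 0.37, 6 of them lay within 1.2-fold, as did 78.1% of all measured genes, and 7 were smaller than their array error. The split of calls over all genes depended on the scaling: 58.8% of genes past 1.5-fold were higher with the deposited scaling, 41.9% with median centring, 48.6% with quantile normalization and 48.2% with loess. The directions of the 10 genes were the same in each of these scalings.

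**Figure D1:**
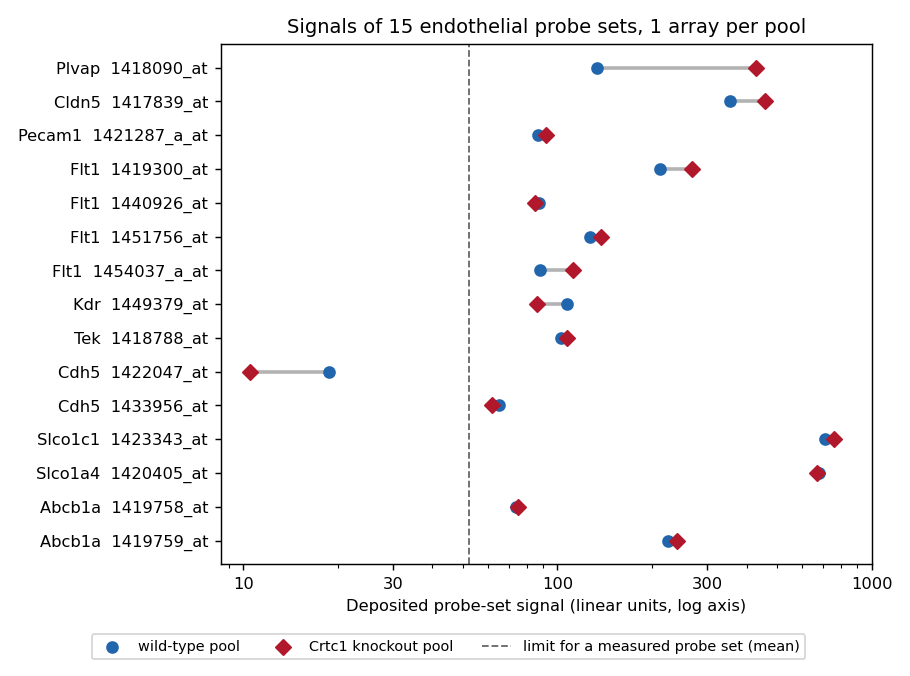
Deposited signal (linear units on a log axis) of each of the 15 probe sets in the knockout pool (diamonds) and the wild-type pool (circles), 1 array each, with the limit for a measured probe set as a dashed line. The Plvap pair, 427 against 133, is the widest of the measured pairs, and the dimmer Cdh5 probe set lies left of the limit in both pools.

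Plvap encodes the protein that forms the diaphragms of fenestrae and caveolae, and in the brain it marks vessels without a barrier. Its single probe set, 1418090_at, read 427 in the knockout pool but 133 in the wild-type pool. The signal was thus 3.20-fold higher in the knockout pool (1.68 on the log2 scale, array error 0.25), the fourth highest difference of all measured genes and between the first and the eleventh over 10 alternative settings. In bulk RNA, a different number of such cells and a different amount of transcript per cell cannot be told apart, here and for every gene below. No other probe set was paired with Plvap, so the value has no repeat reading. Its difference lay 1.60 above the median of the 9 other genes on the log2 scale, 1.31 above Cldn5, the nearest, and 2.0 above Kdr, the farthest, distances that follow from how Plvap was chosen.

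Several of the genes encode proteins of the contacts between endothelial cells. Cldn5, the main claudin of the tight junctions that seal barrier vessels, read 457 (knockout) and 354.5 (wild type). It was 1.29-fold higher (0.37, array error 0.21), a difference past its array error but short of 1.5-fold, and 12.1% of all measured genes differed by more in either direction. Cdh5, the cadherin of endothelial adherens junctions, read 61.9 and 65.2 in knockout and wild type (-0.07, array error 0.35). Its other probe set was under the floor on both arrays at 10.5 and 18.8, so the sign of Cdh5 rests on a dim reading. Pecam1, an adhesion molecule at the contacts of all endothelial cells, read 92.2 and 87.0 (0.08, array error 0.35). The signals of both pan-endothelial junction genes thus lay close together in the 2 pools, within their array errors.

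The receptor genes Flt1 and Kdr for vascular endothelial growth factor differed in sign, Kdr by less than its array error. Flt1 encodes a receptor that binds the factor tightly and signals weakly, also as a soluble trap, and Kdr encodes the main signalling receptor. The brightest Flt1 probe set read 268 (knockout) and 211 (wild type), 1.27-fold higher (0.34, array error 0.25). Another probe set, 1454037_a_at, read 112 and 87.9 (0.35), while 1451756_at read 137 and 127 (0.11) and 1440926_at read 85.1 and 87.5 (-0.04). So 3 of 4 Flt1 probe sets were higher, with a mean of 0.19 ± 0.19 (SD, n = 4 probe sets on the same 2 arrays, which are not replicates). Kdr, seen by 1 probe set, read 86.0 (knockout) and 107 (wild type). The knockout pool was thus 1.24-fold lower (-0.32, array error 0.35). Flt1 relative to Kdr was 0.66 higher on the log2 scale by the brightest probe sets, with a combined array error of 0.43, and 0.51 higher by the mean of the Flt1 probe sets.

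Start-site sequence of 7 of the 10 genes was in the RefSeq promoter table of build GRCm38.p6, which gives 250 bases before and 50 after a start. The table entries of Flt1, Kdr and Cldn5 are shown because Flt1 and Cldn5 were the genes besides Plvap whose difference passed its array error, and Kdr was the receptor of opposite sign. Capitals mark matches to a cAMP response element, the motif bound by CREB (TGACGTCA, a palindrome), an ETS element (CCGGAA or, on the other strand, TTCCGG) and a TATA box (TATAAA or TTTATA). The short form TGACG was searched on both strands as well and overlaps the full element. In order, the windows are chr5:147725962-147726261 and chr5:75978406-75978705 on the minus strand and chr16:18776597-18776896 on the plus strand.
Flt1: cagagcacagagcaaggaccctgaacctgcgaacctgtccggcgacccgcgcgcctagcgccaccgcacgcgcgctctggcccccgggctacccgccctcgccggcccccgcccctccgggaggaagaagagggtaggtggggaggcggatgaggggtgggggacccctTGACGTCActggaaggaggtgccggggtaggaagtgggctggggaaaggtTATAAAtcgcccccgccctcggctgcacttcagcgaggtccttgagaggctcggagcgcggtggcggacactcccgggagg
Kdr: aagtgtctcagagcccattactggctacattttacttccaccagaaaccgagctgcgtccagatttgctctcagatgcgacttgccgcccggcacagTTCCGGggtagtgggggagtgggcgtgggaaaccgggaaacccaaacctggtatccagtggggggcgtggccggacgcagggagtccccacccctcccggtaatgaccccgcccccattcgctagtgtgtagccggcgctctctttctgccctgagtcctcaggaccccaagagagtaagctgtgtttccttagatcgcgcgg
Cldn5: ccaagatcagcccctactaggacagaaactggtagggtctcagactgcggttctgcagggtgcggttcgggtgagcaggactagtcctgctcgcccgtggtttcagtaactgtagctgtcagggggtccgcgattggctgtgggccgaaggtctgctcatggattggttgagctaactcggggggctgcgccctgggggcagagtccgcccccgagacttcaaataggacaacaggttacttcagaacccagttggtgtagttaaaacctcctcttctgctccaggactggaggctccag
The Flt1 window held the full cAMP response element 81 bases before the start and a TATA box 31 bases before it. Of 32851 promoter windows in the table, 1.79% held the full element and 20.8% the short form, and among the 7 endothelial genes Flt1 alone held either. The Kdr window held an ETS element 153 bases before the start, as did 14.9% of all windows anywhere in their length. A TATA box was in 13.6% of all windows and, of the 7, in those of Flt1 and Slco1c1. The Slco1c1 match lay 3 bases after the start, not before it. The Cldn5 window held none of these motifs. A match describes the letters of a window and does not show that a factor binds there.

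Tek encodes Tie2, the endothelial receptor for angiopoietins, which stabilises vessels when bound by angiopoietin 1. It read 107 (knockout) and 103 (wild type) (0.06, array error 0.35), so the pools differed by less than the array error. Its agonist Angpt1 read 84.6 and 131 and was 1.55-fold lower in the knockout pool (-0.63, array error 0.35, 1 probe set). With a pseudocount in place of a floor, Angpt1 was -0.55, short of 1.5-fold. Of 7 genes on the angiopoietin list 4 were measured, 3 higher and 1 lower, with Ptprb, a phosphatase that restrains Tie2, at 0.13 and the transcription factor Foxo1 at 0.25 by its brightest probe set. Foxo1 was -0.11 without probe sets whose names end in _s_at or _x_at.

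The signals of the barrier transporters lay close together in the 2 pools. Slco1c1 carries thyroxine across the barrier and read 757 (knockout) and 709.5 (wild type) (0.09, array error 0.17). Slco1a4, an organic anion transporter of the same family with 2 protein-coding genes between the pair on chromosome 6, read 672 and 678 (-0.01, array error 0.17). Abcb1a encodes P-glycoprotein, the main drug efflux pump of brain endothelium, and read 240 and 224 by its brighter probe set (0.10, array error 0.25) and 75.0 and 73.8 by the other (0.02). The folds of these 3 genes by their brightest probe sets were 1.07 higher, 1.01 lower and 1.07 higher, each smaller than its array error.

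**Figure D2:**
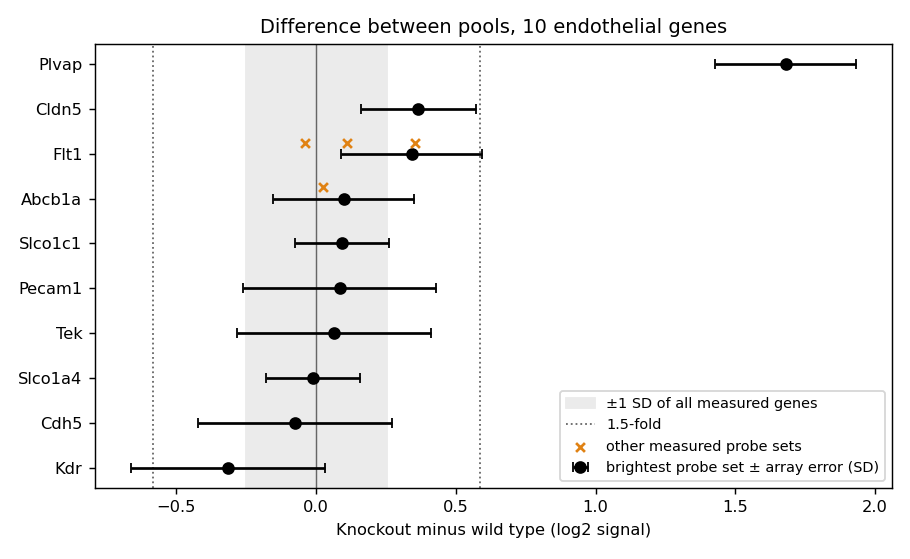
Difference of log2 signal, knockout minus wild type, for the 10 genes by their brightest probe set (points, bars ± array error as SD), with their other measured probe sets as crosses, 1.5-fold as dotted lines and ±1 SD of all 11312 measured genes (0.25) shaded. Plvap lies at 1.68, and the 9 others between -0.32 and 0.37.

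Other genes of the vessel wall were taken from 9 lists, written with earlier results of these data known. The medians of 13 of 18 lists, counting those of other cell types, changed sign in at least 1 of 10 alternative settings. Of 125 genes on these lists 92 were measured, and 82 of those were not among the 10. Of these 82, 44 were higher and 38 lower in the knockout pool, with a median of 0.05, and none differed 2-fold. With median centring 40 were higher and 42 lower (median -0.01), and quantile and loess scaling left 44 and 38. The 2 genes at least 1.5-fold higher (2.44% of the 82, beside 2.06% of all genes) were Emcn, which encodes the sialomucin endomucin of capillary and venous endothelium, and Ndp, which encodes norrin. Emcn read 115 and 72.3 in knockout and wild type (0.67, array error 0.35), and Ndp 80.8 and 49.2 (0.72, array error 0.35). The 3 at least 1.5-fold lower (3.66%, beside 1.44%) were Angpt1, Acvrl1 and Foxq1. Acvrl1, which encodes the endothelial receptor ALK1, read 44.0 and 72.3 (-0.72), and the forkhead gene Foxq1 read 44.0 and 74.4 (-0.76). Each of the 5 rested on 1 probe set in the dimmest signal range. Ndp in the wild-type pool, and Acvrl1 and Foxq1 in the knockout pool, lay under the limit of 52.3 for a measured probe set. These genes thus passed the filter through their brighter pool, and their share of the calls depends on that filter. Without a floor and with a pseudocount, none was 1.5-fold higher and 1 was 1.5-fold lower, and with a floor at the 50th percentile 1 was lower.

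Among 13 genes of fenestrae, caveolae and transcytosis, 10 were measured, 5 higher and 5 lower. Without Plvap the other 9 had a median of -0.07, with 4 higher and 5 lower. Cav1, the coat protein of caveolae, read 169 and 124 in knockout and wild type (0.45, array error 0.25), whereas Cavin1, its partner in the coat, read 145 and 184 (-0.34, array error 0.25). Mfsd2a, the lipid transporter that restrains transcytosis in barrier vessels, read 304 and 376 (-0.31, array error 0.21). All 3 passed their array error and none reached 1.5-fold.

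Junction genes had a median of 0.08 over 15 measured of 17, with 8 higher and 7 lower. The largest were F11r, which encodes the adhesion molecule JAM-A (97.2 and 65.1, 0.58, array error 0.35), and the cadherin gene Cdh2 (1117 and 773, 0.53, array error 0.17), which is not particular to vessels. Jam2 was 0.39 by its brightest probe set and -0.09 by the mean of its 3, so its sign was not settled.

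Uptake transporters had a median of 0.09 over 17 measured of 19, with 11 higher and 6 lower, and none passed 1.5-fold. Slc16a1, a lactate carrier, differed by 0.22 (array error 0.17). Slc22a8, an organic anion transporter, differed by 0.23 (0.25) and Slc19a3, a thiamine transporter, by 0.31 (0.35), both within their array errors. Of those lower, Slc3a2 differed by -0.15 (0.12) and Insr by -0.20 (0.21). Slco2b1 was 0.35 by its brightest probe set and -0.19 without probe sets whose names end in _s_at or _x_at. Efflux pumps had a median of 0.10 over 5 measured of 7. Abcg2, another efflux pump of the barrier, read 189 and 142 in knockout and wild type (0.41, array error 0.25), Abcc4 differed by 0.25 (0.35), and Abcc5, which neurons also express, by -0.16 (0.17).

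The ligands of the receptors gave no common direction. Vegfa read 247 (knockout) and 217 (wild type) (0.19, array error 0.25), and both of its measured probe sets were higher. Vegfb, a ligand of Flt1 and not of Kdr, read 615 and 744 (-0.27, array error 0.17). Over the list of ligands, receptors and coreceptors 7 of 10 genes were measured, 4 higher and 3 lower, with a median of 0.09. The Wnt and norrin list had 17 measured of 19, 8 higher and 9 lower, and a median of -0.05. Besides Ndp and Foxq1 its largest differences were Tspan12, a coreceptor of norrin, at 0.52 (array error 0.35), and Nkd1, an inhibitor of Wnt signals, at 0.40, with probe sets of opposite sign.

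Endothelial identity genes as a whole stood level. Of 34 genes on that list 23 were measured, 10 higher and 13 lower, with a median of -0.02. Without the 5 that belong to the 10 genes described, the other 18 also had a median of -0.02, with 7 higher and 11 lower. Robo4, an endothelial guidance receptor, read 54.6 and 74.2 in knockout and wild type (-0.44, array error 0.35). Of 8 genes of activated endothelium 2 were measured, Vcam1 at 0.16 (array error 0.25) and Ackr1 at 0.00 (0.12), and 4 lay under the floor on both arrays. Vcam1 was -0.06 by the mean of its 3 probe sets, so its sign was not settled.

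**Figure D3:**
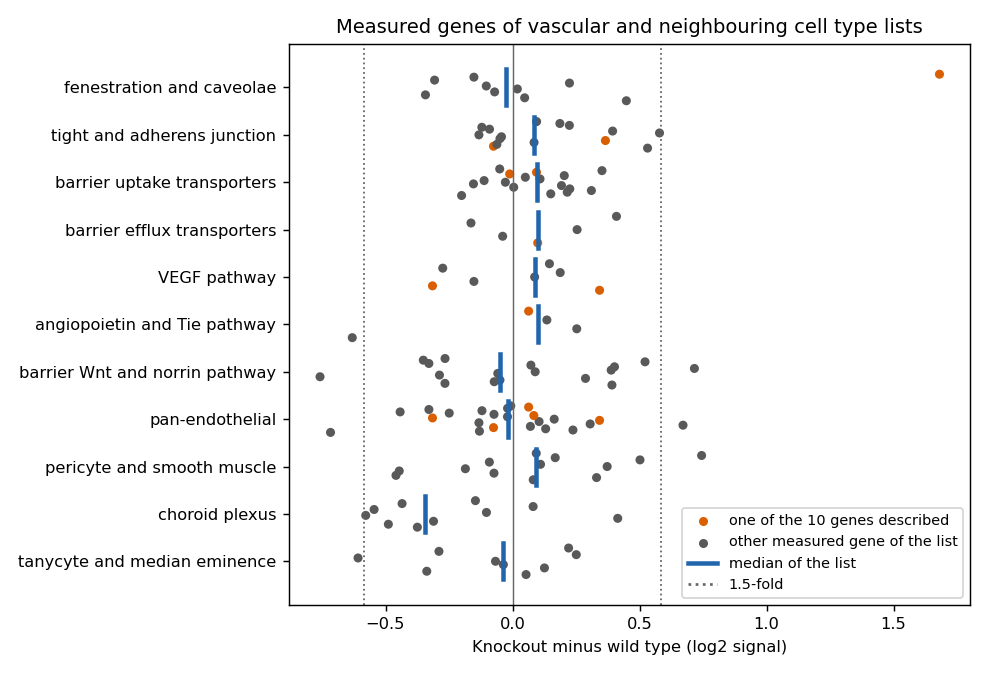
Difference of log2 signal, knockout minus wild type, of each measured gene (points, the 10 genes described in orange) on 8 vascular lists and 3 lists of neighbouring cell types, with the median of each list as a bar and 1.5-fold as dotted lines. The list medians lie between -0.34 for the choroid plexus and 0.10, and Plvap is the only point past 2-fold.

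Markers of other cells that border on vessels, or of tissues with fenestrated capillaries, were read in the same arrays. Mural cell genes, of pericytes and smooth muscle, had a median of 0.09 over 13 measured of 17, with 8 higher and 5 lower, and summed signals of 3706 in the knockout and 3403 in the wild-type pool. Tagln, an actin-binding protein of smooth muscle, was 1.67-fold higher (0.74, array error 0.35), and Pdgfrb, the receptor that recruits pericytes, read 170 and 120 (0.50, array error 0.25). Mcam was -0.45 (0.35), and Cspg4 was -0.46 by its brightest probe set and -0.11 by the mean of its 2. Pdgfb, the endothelial ligand of that receptor, differed by -0.09 (0.21).

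Markers of the choroid plexus, whose capillaries carry Plvap, stood lower in the knockout pool. Of 12 such genes 10 were measured, 8 lower and 2 higher (median -0.34). The signals of the 11 with a probe set paired with them alone summed to 8784 (knockout) and 9941 (wild type). Most of both sums came from Ttr. Ttr, the thyroxine carrier made there, read 7745 and 8571 (-0.15, array error 0.12), Folr1, a folate receptor gene, was -0.58 (0.25), Kl, which encodes klotho, -0.54 (0.21), Cldn2, the claudin of its epithelium, -0.49 (0.35), and Sostdc1, which encodes a secreted inhibitor of bone morphogenetic proteins, -0.43 (0.35). With quantile and loess scaling Ttr was -0.055 and -0.11, within its array error. F5 at 0.41 (0.35) and Otx2 at 0.08 (0.35) were higher, F5 by 0.07 as the mean of its 2 probe sets. With the deposited scaling no measured gene of this list reached 1.5-fold. Tanycytes, the lining cells that contact the median eminence, gave a median of -0.04 over 9 measured of 12, 4 higher and 5 lower, with summed signals of 3658 and 3630. Their defining transcription factor gene Rax was under the floor on both arrays. Dio2, which activates thyroid hormone in tanycytes, differed by 0.13 (0.21), the intermediate filament gene Nes by -0.61 (0.35), Crym by -0.34 (0.17), Scn7a by -0.29 (0.35), and Ptn by 0.25 (0.12). The probe sets of Dio2 and those of Ptn differed in sign, with means of 0.12 and 0.21.

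Of 11 pituitary genes 1 was measured, Gata2 at 0.13 (array error 0.35), and the 9 with a probe set paired with them alone summed to 248 and 283. The prolactin gene Prl read 1.2 and 3.5 in knockout and wild type and the growth hormone gene Gh 6.8 and 23.7, so the defining pituitary transcripts did not count as measured. Meningeal and fibroblast genes had a median of 0.05 over 13 measured of 13, 8 higher and 5 lower, with sums of 3335 and 3260. Among them Ogn was 0.56 (0.35), Slc6a13 0.41 (0.35), Aldh1a2 -0.31 (0.35), and the collagen genes Col1a1 and Col1a2 0.24 (0.35) and 0.14 (0.21). Pdgfra was 0.39 by its brightest probe set and 0.12 by the mean of its 2. Of 7 red blood cell genes 4 had a probe set paired with them alone and 1 was measured, Alas2 at 0.09 (0.35). The globin genes Hba-a1 and Hba-a2 read 7.0 and 20.5 (knockout) against 25.4 and 24.7 (wild type). Both were at or under the floor in the knockout pool and close to it in the wild-type pool. These readings therefore do not show whether blood transcripts differed.

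Neurons, astrocytes and microglia gave medians of -0.02 over 8 genes, 0.05 over 8 and 0.23 over 9. Their summed signals were 31091 and 31323, 14292 and 13935, and 4641 and 4108 in knockout and wild type. The neuronal genes Snap25 and Syt1 differed by 0.09 and -0.02, Tubb3 by -0.23 (array error 0.17), and Eno2 and Nefl by -0.05 and -0.08 (0.12). The astrocyte genes Gfap and Gjb6 differed by 0.07 and -0.26 (0.12), Aldh1l1 by 0.10 (0.17), and Slc1a3 by 0.12, with probe sets of opposite sign. Microglia markers were higher in 6 of 9, with Cx3cr1 at 0.24 (array error 0.35), C1qb at 0.29 (0.21), Trem2 at 0.70 (array error 0.35) and P2ry12 at 0.31 (0.21). Tmem119 at -0.17 (0.25), Aif1 at -0.13 (0.35) and C1qc at -0.02 (0.17) were lower. The microglia median was the value of Csf1r, whose probe sets differed in sign, with a mean of 0.10. Trem2 rested on 1 probe set at 84.4 (knockout) and 52.1 (wild type), the latter under the limit of 52.3 for a measured probe set. Aqp4, the water channel of the astrocyte endfeet that wrap vessels, was 1.26-fold higher (0.34, array error 0.12). The medians of the astrocyte and meningeal lists changed sign with median centring, that of the Wnt and norrin list with quantile scaling and that of the neuronal list with quantile and loess scaling, each to a value that rounds to between -0.01 and 0.01. The part of any of these lists in the Plvap difference was not tested.

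Plvap and Cdh5 lie on chromosome 8, as does Crtc1, at 46 and 293 protein-coding genes from it in the order of assembly GRCm38.p6. Of the protein-coding genes up to 10 places from Plvap on each side, 11 were measured, 3 higher and 8 lower, with a median of -0.17. Of all measured genes, 50.9% were higher by any amount. Ano8, a gene of the anoctamin family 2 genes from Plvap, read 120 (knockout) and 260.5 (wild type) and was 2.18-fold lower (-1.12, array error 0.25, 1 probe set). Dda1, 3 genes away on the same side, read 561 and 837 (-0.58, array error 0.17), with all 3 of its probe sets lower, and Gtpbp3, the nearest measured neighbour, differed by -0.17 (0.35). So 1 of the 11 neighbours passed 1.5-fold lower and none 1.5-fold higher, beside 1.44% and 2.06% of all measured genes. Around Cdh5, 13 neighbours were measured, 6 higher and 7 lower, with a median of -0.04. Of these 13, 1 passed 1.5-fold in each direction, beside 2.06% of all measured genes higher and 1.44% lower. Cklf, 3 genes away, read 191 (knockout) and 47.7 (wild type) and was 4.01-fold higher. Bean1, the next gene, read 48.7 and 86.2 and was 1.77-fold lower. Each rested on 1 probe set (array error 0.35). In each, the lower reading was under the limit of 52.3 for a measured probe set, so it passed the filter through its brighter pool. An effect of position on that chromosome and one of the missing gene cannot be told apart in this design.

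**Figure D4:**
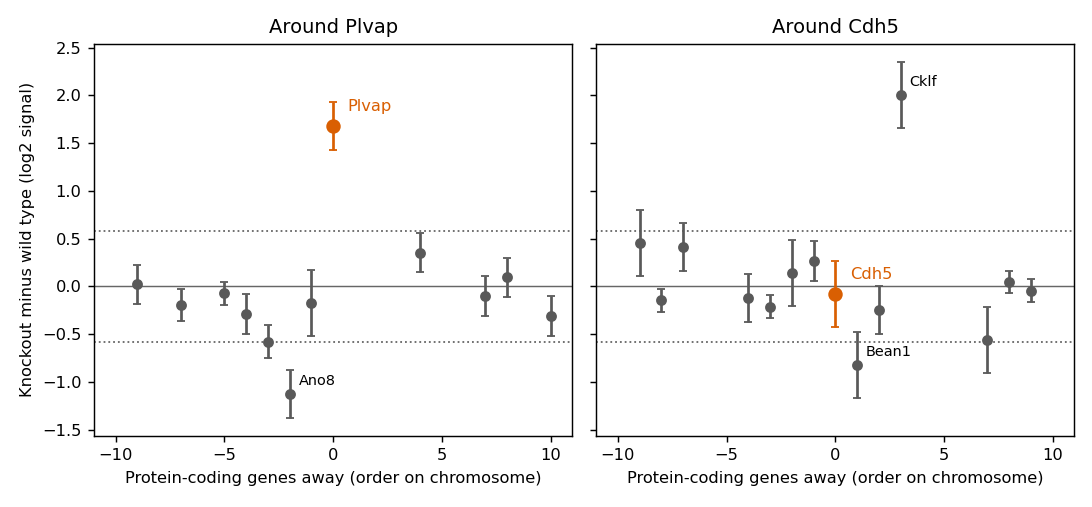
Difference of log2 signal, knockout minus wild type, of the measured genes within 10 protein-coding genes of Plvap (left) and of Cdh5 (right) on chromosome 8, by gene order, with bars ± array error (SD) and 1.5-fold as dotted lines. Plvap at 1.68 and Ano8 at -1.12 are 2 genes apart, and Cklf, 4.01-fold higher, lies 3 genes from Cdh5 at -0.07. The wild-type reading of Cklf, 47.7, lay under the limit of 52.3 for a measured probe set.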

How the data were processed

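RNA of the hypothalamus was pooled from 3 mice a genotype and hybridised to 1 array each, per the labels' protocols and the series design text. The authors deposited linear probe-set intensity values. No source used here names the algorithm that summarised the probes. The mean without the lowest and highest 2% was 200.0 on both arrays while medians differed, as after scaling by 1 factor per array, a step that no source used here states. The number of arrays limits the precision.

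Of 45101 probe sets, 64 controls were left out. Symbols came from GEO's platform annotation, updated by Entrez ID through RefSeq (GRCm38.p6), with 34741 of 34945 single-gene probe sets matched. Array medians differed by 0.06 (log2), so no further scaling was applied. Signals under the 30th percentile of an array (20.5 in the knockout, 20.2 in the wild type) were raised to it before taking log2. The filter kept 22519 probe sets and 11312 genes, and a gene took its brightest measured probe set. The array error pools probe sets of one gene within a signal range. The steps were tested on simulated data with known changes.

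Named were the 10 genes, up to 4 measured genes of each of 18 lists by size of difference plus any past 1.5-fold, and the first 2 genes of each list of other cells. The neighbours named, the hypothalamic peptides and some further list genes, mostly of the opposite sign to those named by this rule, were singled out with values known. The members and lists were chosen with earlier results of these data known. Python 3.11.15, numpy 2.4.6, pandas 2.3.3 and statsmodels 0.14.6 were used.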

Additional observations from a re-analysis of the deposited data

How the results depend on the processing

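Over 10 alternatives of scaling, floor, filter, probe-set summary and probe-set choice, Plvap differed by 1.57 to 1.68 and stayed the one gene of the 10 past 1.5-fold. In the settings that measured them, 7 of the 10 genes were higher and 3 lower, except that a filter at the 70th percentile measured 6 of them, 5 higher and 1 lower. Vascular genes other than the 10, at least 1.5-fold higher and lower, numbered 2 and 3 in the main setting, 5 and 4 with no filter, 0 and 1 with a pseudocount of 16, 0 and 0 with the filter at the 70th percentile, and 2 and 1 with a floor at the 50th percentile. Neighbours of Plvap past 1.5-fold higher and lower numbered 0 and 1, but 0 and 2 with median centring, 1 and 1 with the floor at the 50th percentile, and 2 and 2 with no filter. All genes past 1.5-fold, 233 higher and 163 lower, were 719 and 582 with no filter (18193 genes measured), 48 and 46 with the stricter filter (8020 genes measured), and 138 and 96 with the pseudocount, which shrinks low signals. The error of a list median was taken as the median array error of its genes over the square root of their number, and 15 of 178 recomputed list medians, from 10 lists, moved by more. With median centring these were junction genes (0.025), uptake transporters (0.035), neurons (-0.082) and astrocytes (-0.0055). With the mean of probe sets they were junction genes (-0.026), Wnt and norrin (0.072), neurons (-0.078), astrocytes (0.10) and microglia (0.14). Without probe sets whose names end in _s_at or _x_at they were junction genes (0.14), uptake transporters (0.050) and mural cells (-0.044). The stricter filter gave efflux pumps -0.039, tanycytes 0.053 and the 10 genes 0.22, and the floor at the 50th percentile gave the VEGF pathway -0.033. The medians of 5 of the 18 lists (uptake transporters, pan-endothelial, choroid plexus, pituitary, microglia) had 1 sign in each setting that gave them, and the other 13 changed sign in at least 1. The other causes were not tested. No replicate could be left out and no paired analysis was possible because each group was 1 pooled array. A low signal limits Cdh5, Kdr, Pecam1 and Tek most, whose array error was 0.35.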
